A study of Mus musculus with 6 samples.

Results

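This is an account of 10 genes of myostatin, activin and TGF-beta signalling, chosen by name, out of 46078 genes counted in differentiating C2C12 cells with and without *Hnrnpa2b1*. C2C12 is a mouse myoblast line that fuses into myotubes when serum is lowered, and *Hnrnpa2b1* encodes a nuclear RNA-binding protein. Cells of both genotypes had been under differentiation conditions for 2 days (labelled as serum withdrawal with ITS supplement, in a medium to which the study's culture methods add horse serum), and total RNA was sequenced in 3 libraries labelled *Hnrnpa2b1* KO and 3 labelled WT. The study's methods describe KO and WT clones isolated with cloning rings after transfection of a Cas9 plasmid and puromycin selection, and do not state which clone gave which library. The libraries held 33605258 to 40558740 counts. The targeted gene's own RNA gave 159, 195 and 249 CPM (counts per 1000000 of the scaled library total) in KO replicates 1 to 3 and 225, 229 and 252 in WT, so the groups overlapped and its RNA level did not check the genotype labels. The study's methods state that loss of the protein in the KO clones was checked by immunofluorescence and Western blotting, which is not analysed here. KO and WT therefore stand for the labels throughout.

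Myostatin, the activins and the TGF-betas are secreted dimers of one protein family. They bind a type II receptor at the cell surface, which activates a type I receptor that phosphorylates Smad2 and Smad3, and these move with Smad4 into the nucleus. TGF-beta leaves the cell bound to its own propeptide and to a latency protein of the Ltbp family, and has to be freed before it can bind, while follistatin and follistatin-like 3 capture activin and myostatin outside the cell. In skeletal muscle myostatin limits growth, follistatin counters it, and TGF-beta restrains the differentiation of cultured myoblasts.

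All 10 genes passed the filter on low counts, and 3 of them passed the test at an adjusted p under 0.05, with lower RNA of the follistatin gene *Fst* and the type II receptor gene *Acvr2a* in KO and higher RNA of the latency gene *Ltbp1*. *Fst* was 3.74-fold lower and *Acvr2a* 1.72-fold lower, whereas *Ltbp1* was 1.54-fold higher. None of the 5 ligand genes passed. Over all 14828 genes tested, 22.7% passed, 12.1% as higher and 10.6% as lower in KO, so 3 of 10 has to be read against a large background of change. The median log2 fold change of the 10 was -0.41, with 2 positive and 8 negative, and that of all genes tested was 0.03. In 4 of the 10 (*Fst*, *Acvr2a*, *Ltbp1* and *Tgfb3*) the KO and WT libraries did not overlap in CPM, which held for 44.3% of all genes tested. Each p-value measures only the spread between these libraries, and in RNA from whole cultures fewer cells of a type and less RNA per cell cannot be told apart.

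**Figure D1:**
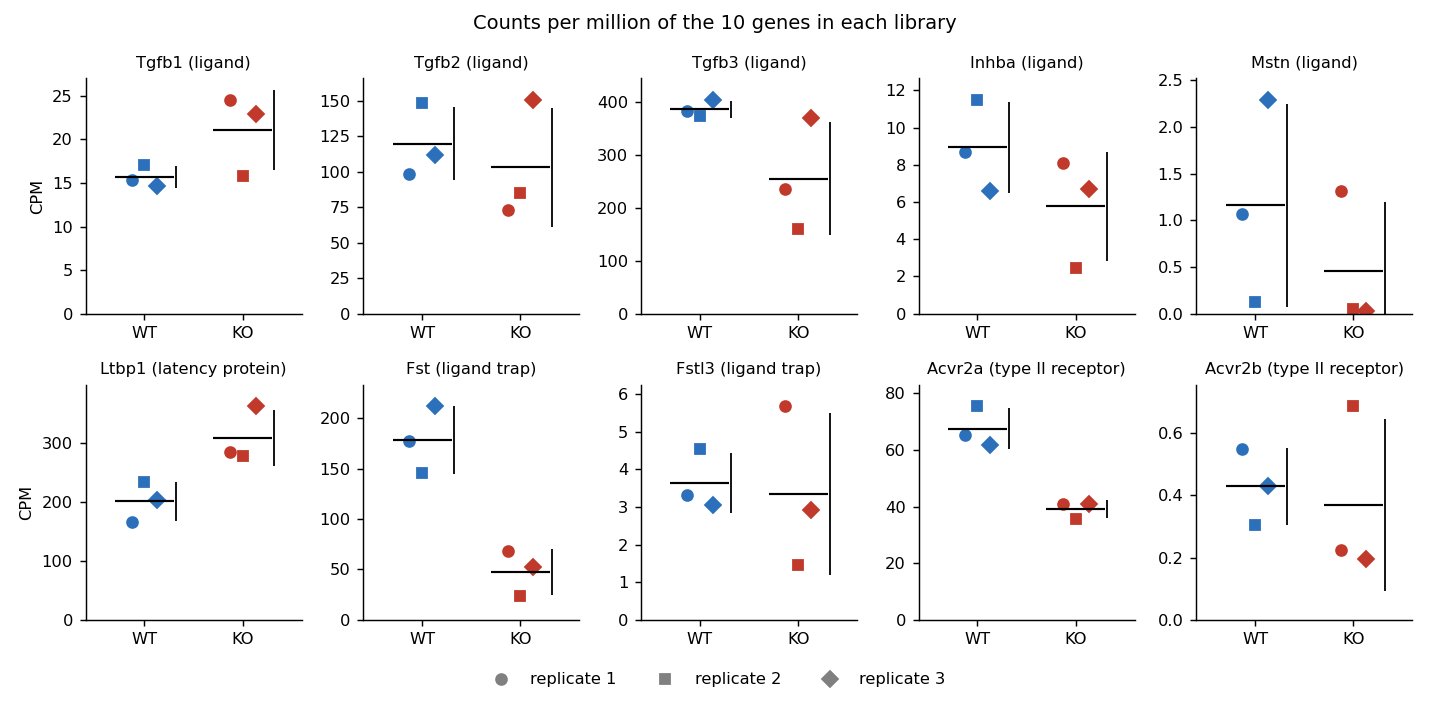
CPM (vertical axes, from 0) of the 10 genes in 3 WT libraries (blue) and 3 KO libraries (red), with the mean as a horizontal line and 1 SD either side as a vertical line, drawn no lower than 0. KO points lie apart from WT points for *Tgfb3*, *Ltbp1*, *Fst* and *Acvr2a*, and mix with them for the other 6 genes.

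*Fst* encodes follistatin, the secreted trap for activin and myostatin, and lies at chr13:114452262-114458730 on the minus strand. It gave 67.9, 23.2 and 52.1 CPM in KO replicates 1 to 3 and 177, 145 and 212 CPM in WT replicates 1 to 3. The highest KO library was thus below the lowest WT library, and KO replicate 2 was the lowest of all. The log2 fold change was -1.90 (SE 0.36, 95% interval -2.74 to -1.07, n = 3 and 3, edgeR quasi-likelihood test, adjusted p = 0.0111). Among the 10 genes this was the largest change that passed the test, and the call held in all 12 alternatives on counts, with log2 fold changes from -2.25 to -1.57. In TPM, which corrects for gene length, *Fst* stood at 17.5, 6.26 and 16.7 in KO and at 50.7, 42.9 and 56.2 in WT. That difference was -1.92 on the log2(TPM + 1) scale (limma, adjusted p = 0.00650), and its call was lost without the filter on low TPM (adjusted p = 0.0796). The antisense gene *Gm47040* shares exon sequence with *Fst* on the other strand and was not analysed here.

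*Fstl3* encodes follistatin-like 3, a relative of follistatin that binds the same ligands, at chr10:79777272-79782630 on the plus strand. Its CPM was 5.68, 1.44 and 2.93 in KO and 3.33, 4.54 and 3.05 in WT. KO replicate 1 was the highest of the 6 libraries and KO replicate 2 the lowest, so the KO libraries enclosed all WT libraries. *Fstl3* differed by -0.12 on the log2 scale (SE 0.47, 95% interval -1.20 to 0.96, adjusted p = 0.868), and its sign turned without KO replicate 2 (0.24) or WT replicate 2 (0.06). Without KO replicate 1, *Fstl3* moved the other way, to -0.74 (adjusted p = 0.162). Its level depends on the measure. *Fstl3* had 3.30 TPM per CPM, against 0.130 to 0.377 for the other 9 genes, and its exons overlap those of *Prss57* on the opposite strand, which had 0 to 4 counts per library. The part of that overlap in the gap was not tested. *Fst* made up 47.7%, 59.6% and 55.9% of the summed *Fst* and *Fstl3* TPM in KO and 82.4%, 76.3% and 86.8% in WT, but 92.3%, 94.1% and 94.7% of their summed CPM in KO and 98.2%, 97.0% and 98.6% in WT. KO was below WT without overlap on both scales, and no test of the share was made.

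*Acvr2a*, at chr2:48814109-48903269 on the plus strand, encodes a type II receptor for activin, and its product also binds myostatin. The 3 KO libraries gave 40.9, 35.6 and 41.01 CPM, and the WT libraries 65.2, 75.6 and 61.7 CPM. The KO values lay close together and all below WT. The log2 fold change was -0.78 (SE 0.13, 95% interval -1.09 to -0.48, edgeR, adjusted p = 0.00711), with the smallest standard error of the 10 genes. The call held in the 11 alternatives on counts that could be applied to it (log2 fold changes from -0.87 to -0.67), the exception being removal of the median change of other genes in the same 10 Mb window, where 13 others were tested and at least 15 were required. In TPM it stood at 4.78, 4.39 and 6.12 in KO and 8.58, 10.2 and 7.52 in WT, a difference of -0.68 (limma, adjusted p = 0.0269). On that scale the call was lost without KO replicate 2 (adjusted p = 0.0747), WT replicate 1 (0.110), WT replicate 2 (0.0910) or WT replicate 3 (0.0539), and without the filter on low TPM (0.0872). Exons of *Acvr2a* overlap those of *Orc4* on the opposite strand, whose counts of 2391 to 2806 per library compare with 1461 to 2480 for *Acvr2a*. The use of strand in counting is not given in the sources used here, and *Orc4* itself had a log2 fold change of -0.29 (SE 0.12, adjusted p = 0.118), so reads of the shared exons may not be told apart.

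*Acvr2b*, the gene of the other type II receptor that binds myostatin and activin, lies at chr9:119402444-119433501 on the plus strand and was near the limit of detection. Its counts were 8, 30 and 8 in KO and 19, 10 and 16 in WT. KO replicate 2 was the highest library and KO replicates 1 and 3 the lowest, so the groups overlapped. On the log2 scale the difference was -0.20 (SE 0.57, 95% interval -1.52 to 1.12, adjusted p = 0.818), and it turned to 0.04 without KO replicate 1, to 0.11 without KO replicate 3 and to 0.00 without WT replicate 1. The largest move went the other way, to -1.02 without KO replicate 2 (adjusted p = 0.206). *Acvr2a* accounted for 97.0% ± 2.64 of the summed *Acvr2a* and *Acvr2b* TPM in KO and 98.3% ± 0.466 in WT (SD, n = 3 each), with overlapping libraries.

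*Ltbp1* encodes the protein that holds latent TGF-beta and tethers it to the extracellular matrix, and lies at chr17:75005568-75392512 on the plus strand. It gave 284, 278 and 363 CPM in KO and 167, 233 and 203 CPM in WT. All KO libraries were above all WT libraries, with KO replicate 3 the highest. The log2 fold change was 0.62 (SE 0.18, 95% interval 0.21 to 1.03, edgeR, adjusted p = 0.0421). In TPM the values were 34.1, 34.5 and 54.7 in KO and 21.2, 32.1 and 23.6 in WT, also without overlap, and the difference of 0.65 did not pass (limma, adjusted p = 0.0775). The call on counts was lost when KO replicate 2 (adjusted p = 0.0505), KO replicate 3 (0.102), WT replicate 1 (0.174), WT replicate 2 (0.0544) or WT replicate 3 (0.135) was left out. It was also lost with a replicate block, at a log2 fold change of 0.62 (adjusted p = 0.0618). Between 70 and 80 Mb of chromosome 17, 48 other genes were tested, whose median difference exceeded that of all genes by 0.28 on the log2 scale, with 12 called higher and 2 lower, and with such regional medians removed *Ltbp1* stood at 0.34 (adjusted p = 0.204).

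*Ltbp1* and *Acvr2a* are the called genes whose promoters were at hand, taken from RefSeq (GRCm38.p6), where *Ltbp1* has separate starts about which gene counts say nothing. A Smad box (CAGAC, or GTCTG on the other strand), the short element that Smad3 and Smad4 bind, was searched on both strands in the 250 bases before each start. It occurs in 42.2% of the 32544 promoters of that length, so that a match is a description and not a site. The windows of 30 bases below are shown 5′ to 3′ on the gene's strand because they hold every match in these promoters, with the box in capitals. The first lies before the upstream *Ltbp1* start (chr17:75005453-75005482), the next pair before the downstream start (chr17:75178621-75178650 and chr17:75178672-75178701), and the last before *Acvr2a* (chr2:48813909-48813938), all on the plus strand.
Ltbp1 upstream start: gcctgacgtcacGTCTGctgcagattggct
Ltbp1 downstream start, far box: ttacatctgcctGTCTGtcgggggttggct
Ltbp1 downstream start, near box: atgttgctctttGTCTGcccgtgaataaag
Acvr2a: gcccgccgtcccGTCTGctcggtctcggtt
The boxes begin 64 bases before the upstream *Ltbp1* start, 148 and 97 bases before the downstream one, and 188 bases before the *Acvr2a* start. Among all members, 8 had a promoter in the table, and those of *Tgfb1* and *Inhba* held no such letters in this window.

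*Tgfb3* was the most abundant of the 10 genes per length in WT and lies at chr12:86056744-86079041 on the minus strand. It encodes TGF-beta 3, one of the mammalian TGF-beta isoforms. Its CPM was 235, 160 and 371 in KO and 383, 374 and 405 in WT. All KO libraries were below all WT libraries, but KO replicate 3 fell just short of the lowest WT library. The log2 fold change was -0.60 (SE 0.28, 95% interval -1.24 to 0.05, edgeR, adjusted p = 0.154), which did not pass. Leaving out 1 library gave -0.35 without KO replicate 2 (adjusted p = 0.296) to -0.96 without KO replicate 3 (0.0271), and also passed without the filter on low counts (-0.63, adjusted p = 0.0201). In TPM the groups overlapped, since KO replicate 3 stood at 90.9 against 82.3 to 84.8 in WT, while KO replicates 1 and 2 stood at 46.1 and 33.5 (difference -0.68, limma, adjusted p = 0.151, from -0.37 with adjusted p = 0.377 without KO replicate 2 to -1.07 with 0.0113 without KO replicate 3). The gene's neighbourhood moved the other way. Between 80 and 90 Mb of chromosome 12 the median difference of 96 other genes exceeded that of all genes by 0.35 on the log2 scale, with 25 called higher and 1 lower, and for the 482 others on the chromosome the excess was 0.36. With regional medians removed, *Tgfb3* stood at -0.94 (adjusted p = 0.05001).

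*Tgfb1*, the gene of TGF-beta 1, lies at chr7:25687002-25705077 on the plus strand and gave 24.5, 15.8 and 22.9 CPM in KO and 15.3, 17.0 and 14.6 CPM in WT. KO replicates 1 and 3 were above every WT library, and KO replicate 2 was among them. On the log2 scale *Tgfb1* differed by 0.43 (SE 0.19, 95% interval -0.01 to 0.87, adjusted p = 0.137), and it ranged from 0.30 without KO replicate 1 (adjusted p = 0.270) to 0.60 without KO replicate 2 (0.0369), the single leave-one-out fit in which it passed. *Tgfb2*, the gene of TGF-beta 2, lies at chr1:186622792-186705989 on the minus strand. Its CPM was 73.3, 85.4 and 151 in KO and 98.7, 149 and 112 in WT. KO replicates 1 and 2 were the lowest of the 6 libraries and KO replicate 3 the highest, and the log2 fold change was -0.22 (SE 0.28, 95% interval -0.87 to 0.44, adjusted p = 0.604). Leaving out 1 library moved it from -0.59 without KO replicate 3 (adjusted p = 0.0966) to -0.03 without KO replicate 1 (0.943), with -0.09 without KO replicate 2, -0.35 without WT replicate 1 and -0.04 without WT replicate 2. The point estimates of the TGF-beta genes thus had different signs, and none passed the test.

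The make-up of the TGF-beta transcripts within each library is given as shares of TPM, which were not tested. *Tgfb1* took 11.1%, 9.35% and 6.70% of the summed *Tgfb1*, *Tgfb2* and *Tgfb3* TPM in KO and 4.64%, 4.97% and 4.09% in WT, and *Tgfb3* took 73.0%, 66.4% and 72.3% in KO and 80.0%, 74.8% and 80.0% in WT. On this scale the groups did not overlap in either share, with *Tgfb1* above and *Tgfb3* below WT in every KO library. In CPM the *Tgfb1* share was again above WT in every KO library (4.20% to 7.37% in KO and 2.75% to 3.16% in WT), whereas the *Tgfb3* share overlapped (61.3% to 70.6% in KO and 69.2% to 77.1% in WT). The share of *Tgfb2* overlapped (20.4% ± 4.18 in KO and 17.2% ± 2.66 in WT, SD, n = 3 each). The sum itself was 63.1, 50.4 and 126 TPM in KO and 105, 113 and 103 TPM in WT, with KO replicate 3 above WT and the others below. The ratio of *Ltbp1* TPM to that sum was 0.540, 0.684 and 0.435 in KO and 0.201, 0.283 and 0.229 in WT. Every KO library was above every WT library in this ratio, which was not tested.

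**Figure D2:**
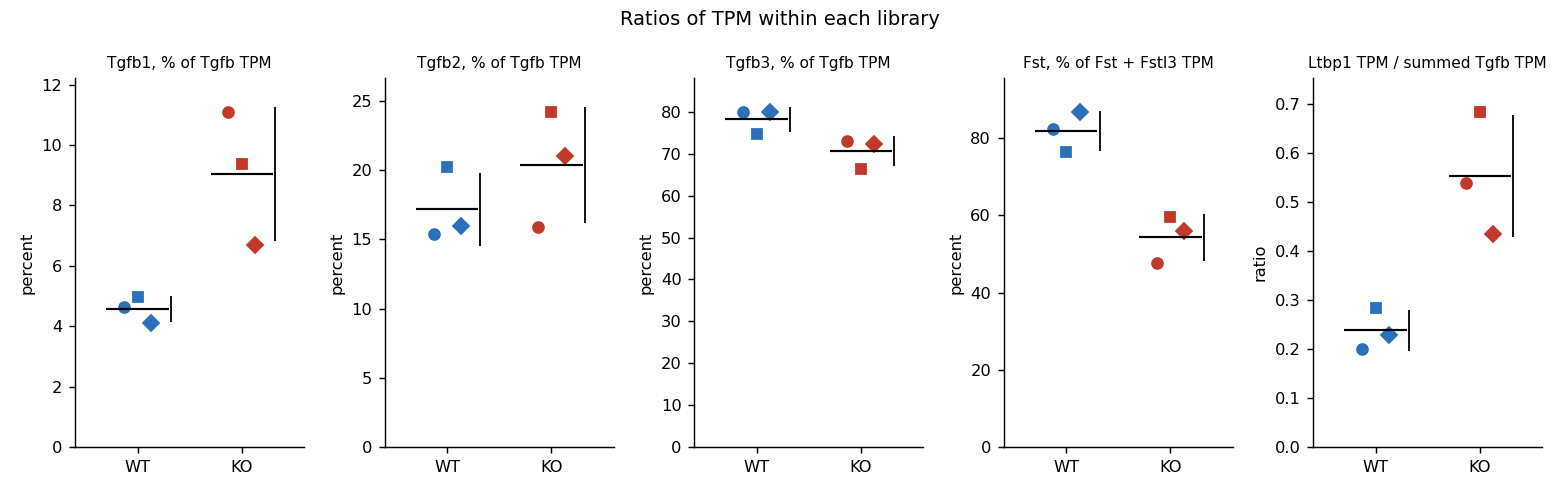
Ratios of TPM within each library (vertical axes, percent or ratio, from 0) for WT (blue) and KO (red), with circles, squares and diamonds for replicates 1 to 3, the mean as a horizontal line and 1 SD either side as a vertical line. KO lies above WT for the *Tgfb1* share and the *Ltbp1* ratio, below WT for the *Tgfb3* and *Fst* shares (the first on the TPM scale only, since it overlaps in CPM, the latter on the TPM scale, where *Fstl3* is high relative to its counts), and overlaps WT for the *Tgfb2* share.

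*Inhba* encodes the beta A subunit, whose homodimer is activin A, at chr13:16011851-16027211 on the plus strand. It gave 8.09, 2.47 and 6.71 CPM in KO and 8.71, 11.5 and 6.60 CPM in WT. KO replicate 2 was far below the other libraries, whereas KO replicates 1 and 3 lay within the WT range. For *Inhba* the log2 fold change was -0.63 (SE 0.42, 95% interval -1.61 to 0.34, adjusted p = 0.300), with no call in any of the 12 alternatives. It ranged from -0.97 without KO replicate 1 (adjusted p = 0.111) to -0.27 without KO replicate 2 (0.509), with -0.42 without WT replicate 2, and on the log2(TPM + 1) scale it went from -0.36 to -0.0069 without KO replicate 2. The ratio of *Fst* to *Inhba* TPM, trap to ligand, was 6.01, 7.13 and 5.61 in KO and 17.9, 10.4 and 26.0 in WT. No KO library reached the WT range of this ratio, which was not tested. The ratio leaves out *Inhbb*, another activin subunit gene, whose mean was 2.46 TPM in KO and 4.05 TPM in WT. Its log2 fold change was -0.69 (edgeR, adjusted p = 0.153).

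*Mstn*, the gene of myostatin, lies at chr1:53061640-53068079 on the plus strand. It had 47, 2 and 1 counts in KO and 37, 4 and 85 counts in WT. Each group thus held libraries with clear signal and libraries almost without it, and KO replicates 2 and 3 had no more than 3 counts each. Its CPM was 1.32, 0.046 and 0.024 in KO and 1.07, 0.12 and 2.29 in WT. Its log2 fold change was -1.37 with the widest interval of the 10 genes (SE 1.31, 95% interval -4.41 to 1.67, edgeR, adjusted p = 0.477). Leaving out 1 library moved it from -0.44 without WT replicate 3 (adjusted p = 0.870) to -4.93 without KO replicate 1 (0.0228), with -0.82 and -0.80 without KO replicates 2 and 3 (0.690 and 0.714). In TPM it was listed at 0 in KO replicates 2 and 3 and WT replicate 2, and like *Acvr2b* it was left out of the TPM test by the filter on low values.

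Of the 8 genes in the TPM test, 2 passed (*Fst* and *Acvr2a*, both lower), against 20.2% of all 11691 genes tested in TPM. Ordered by mean TPM in WT, *Tgfb3* (83.8) and *Fst* (49.9) came first, each above the next gene in every library. *Ltbp1* (25.6) and *Tgfb2* (18.5) overlapped each other, as did *Fstl3* (10.9) and *Acvr2a* (8.78), and *Tgfb1* (4.91), *Inhba* (3.04), *Mstn* (0.273) and *Acvr2b* (0.151) followed, of which only the last pair overlapped. The place of *Fstl3* holds for TPM only, since its mean of 3.64 CPM in WT was below the 67.5 of *Acvr2a*, the 15.6 of *Tgfb1* and the 8.93 of *Inhba*. In KO the order began with *Tgfb3* (56.8) and *Ltbp1* (41.1), whose libraries overlapped. *Tgfb2* (16.2), *Fst* (13.5), *Fstl3* (12.2), *Tgfb1* (6.71) and *Acvr2a* (5.10) followed, each overlapping its neighbour, and *Inhba* (2.25), *Acvr2b* (0.149) and *Mstn* (0.102) closed it. *Fst* stood at the second rank in WT and at the fourth in KO, and *Ltbp1* moved from the third to the second.

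The other genes of the pathway were read from lists by role. Of 72 listed, 57 were tested and 13 passed, 12 higher and 1 lower in KO, which is 22.8% beside the 22.7% of all genes. Both counts moved when 1 library was left out: the pathway genes called ranged from 5 (without WT replicate 1 or WT replicate 3) to 17 (without KO replicate 1), with 8 without KO replicate 3, and all genes called were 4712 without KO replicate 1, 2088 without KO replicate 3, 2100 without WT replicate 2, 1288 without WT replicate 3 and 933 without WT replicate 1. Their median log2 fold change was 0.32. Among 10 other ligand genes, 3 were tested and none passed, nor did any at an unadjusted p under 0.05 in edgeR (0 in DESeq2 after adjustment and 1 before it). *Gdf11*, the closest relative of *Mstn*, gave 38.5, 36.7 and 43.2 CPM in KO and 26.3, 30.5 and 37.3 in WT, with 1 WT library above the lowest KO library (log2 fold change 0.33, SE 0.16, adjusted p = 0.165).

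Among 8 other receptor and co-receptor genes, 5 were tested and 1 rose, which is 20% beside the 22.7% of all genes (12.1% as higher). *Tgfbr2*, the gene of the type II receptor for TGF-beta, gave 226, 197 and 202 CPM in KO and 89.0, 151 and 85.9 in WT. All KO libraries were above WT, of which WT replicate 2 came closest (log2 fold change 0.94, SE 0.23, adjusted p = 0.0240). That call was lost without KO replicate 3 (adjusted p = 0.0555), WT replicate 1 (0.107) or WT replicate 3 (0.0947). The type I receptor genes *Tgfbr1* (log2 fold change 0.39, SE 0.21, adjusted p = 0.208) and *Acvr1b* (-0.35, SE 0.26, adjusted p = 0.342) did not pass. Both passed without KO replicate 1 (0.59, adjusted p = 0.0146, and -0.65, adjusted p = 0.0467) and came closer to 0 without KO replicate 2 (0.26, adjusted p = 0.432, and -0.14, adjusted p = 0.671).

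Of 19 other extracellular regulators, 16 were tested and 3 rose, with a median of 0.58 over those tested. That is 18.8% called, beside the 22.7% of all genes (12.1% as higher). *Thbs1*, whose product thrombospondin 1 can release latent TGF-beta, gave 2314, 1518 and 3380 CPM in KO and 371, 446 and 390 in WT, a 5.97-fold difference (log2 fold change 2.58, SE 0.31, adjusted p = 0.00262). *Emilin1*, whose matrix protein restrains the maturation of the TGF-beta precursor, gave 34.3, 91.1 and 100.04 CPM in KO and 5.44, 7.19 and 10.2 in WT, a 9.85-fold difference (adjusted p = 0.00329). *Bmp1*, the gene of a protease that cleaves latency proteins and the myostatin propeptide, gave 138, 131 and 193 CPM in KO and 71.9, 101 and 86.0 in WT (log2 fold change 0.84, SE 0.19, adjusted p = 0.0214), and its call was lost without WT replicate 1 (0.0972) or WT replicate 3 (0.0864). In all 3 genes every KO library was above every WT library.

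Of 16 Smads and intracellular regulators, 15 were tested and 2 rose, with a median of -0.06. The share called was 13.3%, beside 22.7% over all genes (12.1% as higher). The Smad genes that carry the signal had log2 fold changes of 0.03 for *Smad2* (SE 0.14), -0.06 for *Smad3* (SE 0.12) and -0.08 for *Smad4* (SE 0.12), none of which passed (adjusted p = 0.874, 0.752 and 0.670). The signs turned with library totals alone for *Smad3* (0.05) and *Smad4* (0.04), and with regional medians removed for *Smad3* (0.20). That of *Smad2* turned without KO replicate 2 (-0.076) or WT replicate 3 (-0.033). The 2 that rose encode inhibitors of Smad signalling, the co-repressor gene *Ski* (60.7, 114 and 121 CPM in KO, 52.3, 61.1 and 46.4 in WT, log2 fold change 0.89, adjusted p = 0.0423) and *Pmepa1* (429, 209 and 517 CPM in KO, 154, 229 and 150 in WT, log2 fold change 1.11, adjusted p = 0.0468). In both genes 1 KO library lay below the highest WT library. Each of these calls was lost in 7 of 12 alternatives, among them 5 of the 6 that leave out a library: adjusted p without KO replicate 3 was 0.120 for *Ski* and 0.131 for *Pmepa1*, without WT replicate 1 it was 0.141 and 0.167, without WT replicate 2 0.0729 and 0.0582, and without WT replicate 3 0.151 and 0.158. *Ski* also lost its call without KO replicate 2 (0.0973), and *Pmepa1* without KO replicate 1 (0.0552).

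Of 19 genes that TGF-beta is known to induce in other cells, 18 were tested, 6 rose and 1 fell, with a median of 0.39. Those called were 38.9% of the genes tested, beside 22.7% over all genes (12.1% as higher and 10.6% as lower). *Angptl4*, a secreted inhibitor of lipoprotein lipase, gave 73.2, 30.2 and 26.4 CPM in KO and 0.752, 0.518 and 0.593 in WT, which was the largest rise among the pathway genes tested (log2 fold change 6.11, SE 0.49, adjusted p = 0.000640, and 5.50 without KO replicate 1, its highest library). The immediate early gene *Junb* gave 251, 298 and 256 CPM in KO and 93.6, 88.5 and 86.7 in WT (log2 fold change 1.58, SE 0.13, adjusted p = 0.000712, and 1.01 with regional medians removed). *Lox*, the collagen cross-linking enzyme, rose by 1.14 (SE 0.18, adjusted p = 0.00605) and the zinc finger gene *Klf10* by 0.90 (SE 0.19, adjusted p = 0.0157) on the log2 scale. In each of these 4 genes the KO libraries were above all WT libraries. Of the 18 tested, 12 had positive and 6 negative log2 fold changes. Among those that did not pass in edgeR, *Ctgf* stood at 0.0003, *Acta2* at -0.09, *Tagln* at -0.59, *Itga11* at -0.22 and *Fn1* at 1.12. *Cdkn1a* stood at -0.74 (edgeR, adjusted p = 0.104), and in TPM it was lower in KO (limma, adjusted p = 0.0369).

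*Tgfbi* rose from 6, 8 and 1 counts in WT to 42, 29 and 33 counts in KO (log2 fold change 2.57, SE 0.63, adjusted p = 0.0252), so its size rests on few reads. *Postn*, the gene of the matrix protein periostin, fell, with 22.8, 1.92 and 18.99 CPM in KO and 57.4, 123 and 79.4 in WT (log2 fold change -2.57, SE 0.74, adjusted p = 0.0425). All its KO libraries were below all WT libraries, and KO replicate 2 was far below the rest. The calls of *Klf10* and *Tgfbi* were lost without WT replicate 1 (adjusted p = 0.0741 and 0.0971) or WT replicate 3 (0.0751 and 0.0652), and that of *Tgfbi* also without KO replicate 3 (0.0538). *Postn* lost its call without KO replicate 3 (0.0906), WT replicate 1 (0.0898), WT replicate 2 (0.103) or WT replicate 3 (0.0977). Its call was also lost with a replicate block, at a log2 fold change of -2.87 (adjusted p = 0.0749). The remaining called gene of the list, named after its values were seen, was *Snai1* (log2 fold change 0.60, adjusted p = 0.0469), whose call was lost in 10 of 12 alternatives, with adjusted p up to 0.738.

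**Figure D3:**
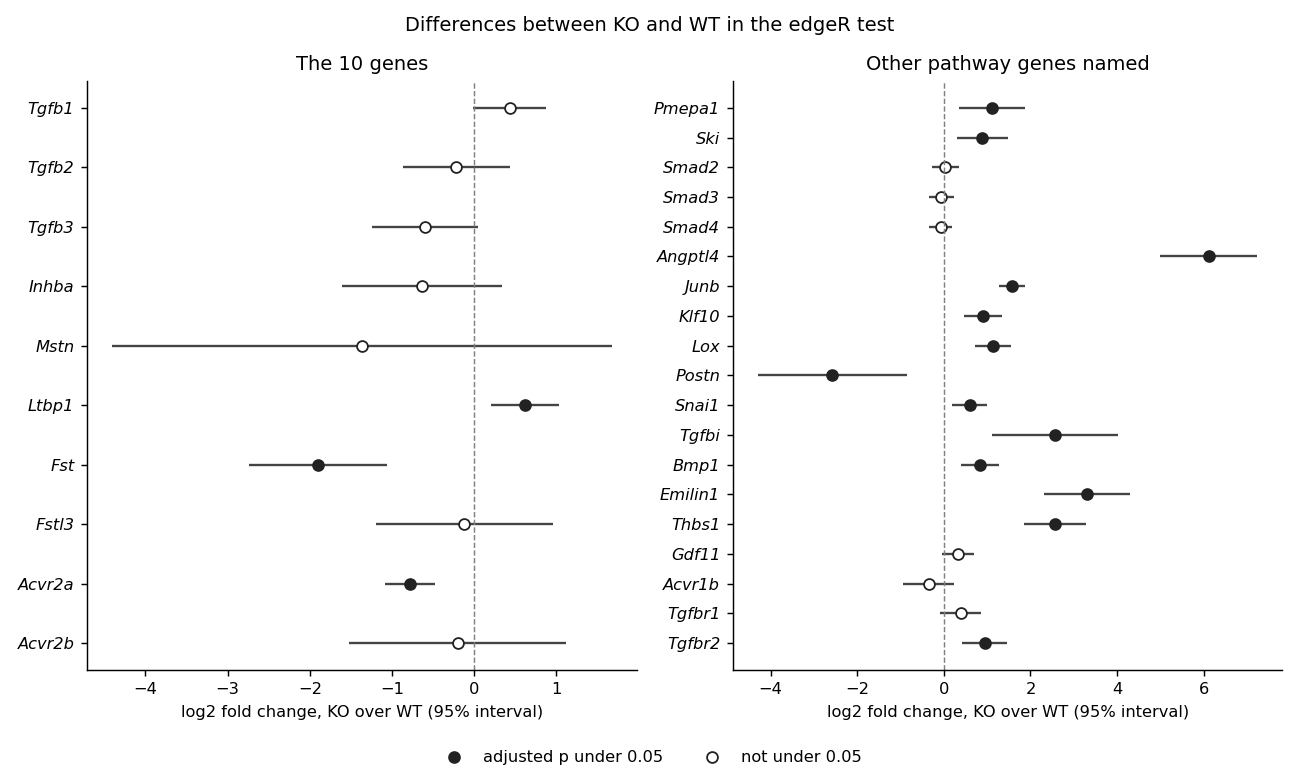
Log2 fold changes of KO over WT (horizontal axis) with 95% intervals for the 10 genes (left) and the other pathway genes named (right), with 3 libraries per genotype. Filled points had an adjusted p under 0.05 in edgeR, which holds for *Ltbp1*, *Fst* and *Acvr2a* on the left and for 13 genes on the right.

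**Figure D4:**
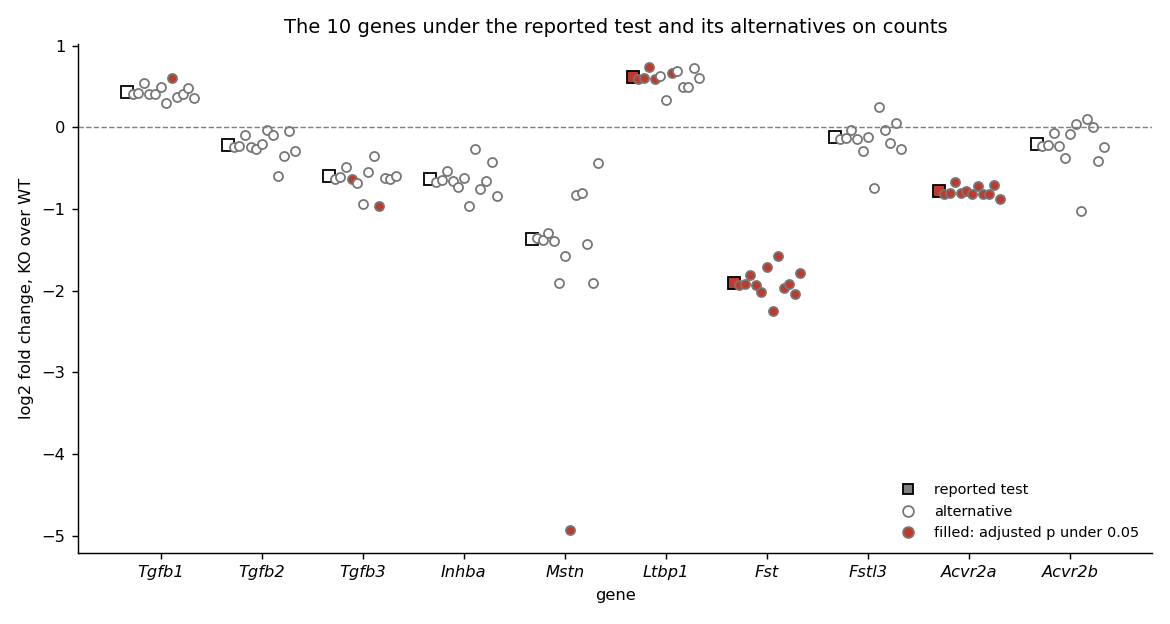
Log2 fold changes of the 10 genes (vertical axis) in the reported edgeR test (squares) and in 12 alternatives on the counts (circles, 11 for *Acvr2a*), filled red where the adjusted p was under 0.05. *Fst* and *Acvr2a* are filled throughout, *Ltbp1* in the reported test and 5 alternatives, and *Tgfb1*, *Tgfb3* and *Mstn* in 1, 2 and 1 alternatives.

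Marker genes were read beside these results. The 12 myogenic markers were all tested and summed to 9201 to 23342 CPM in KO and 15466 to 19868 in WT, and *Myod1* and *Cdh15* rose while *Myf5* fell. The 6 fibroblast and fibro/adipogenic progenitor markers summed to 310 to 1038 CPM in KO and 102 to 154 in WT, and all 4 that were tested (*Pdgfra*, *Ly6a*, *Dpt* and *Pdgfrb*) rose, while *Thy1* had 0 to 5 counts in every library. *Pdgfrb* alone gave 239, 554 and 957 CPM in KO. The fibroblast sum was higher in every KO library, where *Ltbp1* was higher and *Fst* and *Acvr2a* lower, and its part in those results was not tested. The 5 adipocyte markers had at most 3 counts each in every library, the 5 macrophage markers summed to 2.79 to 4.11 CPM in KO and 2.22 to 2.81 in WT, and the 5 endothelial markers to 0.196 to 0.756 CPM in KO and 1.19 to 2.05 in WT, where *Kdr* fell.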

How the data were processed

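RNA from 3 KO and 3 WT libraries of differentiating C2C12 cells was depleted of ribosomal RNA and sequenced in pairs of reads. The submitters' processing notes name FastQC, Trim Galore, STAR, featureCounts, StringTie and Salmon. The authors deposited raw gene counts of all 6 libraries in one table and StringTie TPM values per library, and TPM sharing a gene identifier were summed. The paper's methods name GRCm39 and the notes mm9. In the TPM tables, 86.6% of 45137 genes had start and end within 10 bases of GRCm38 (GENCODE M21), so positions are printed as those tables give them, and coordinates of promoters are GRCm38.p6. The counting of strand is not given in the sources used here.

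Counts were scaled with TMM factors (0.949 to 1.08), filtered with filterByExpr and tested two-sided with edgeR 4.0.16 (quasi-likelihood, genotype alone, Benjamini-Hochberg over all 14828 genes tested, threshold 0.05), in R 4.3.3. CPM uses the scaled totals. Standard errors are the log2 fold change over the root of the F statistic. log2(TPM + 1) was tested with limma 3.58.1 for genes whose TPM reached 1 in 3 or more libraries. Alternatives were DESeq2 1.42.0, other scaling, no filter, a replicate block, removal of the median log2 fold change of other genes in windows of 10 Mb (with at least 15 of them), a pseudocount of 0.1 and leaving out each library. Scripts were tested on simulated data.

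The 10 genes and all lists were chosen with earlier results of these data known. All 10 were named, with, per list, up to 6 called genes of smallest adjusted p and *Smad2*, *Smad3*, *Smad4*, *Tgfbr1*, *Tgfbr2*, *Acvr1b* and *Gdf11*. One gene of the planned lists is not reported here and was left out of their counts.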

Additional observations from a re-analysis of the deposited data

How the results depend on the processing

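Leaving out 1 library at a time gave 933 to 4712 calls over all genes in edgeR beside 3361 (2088 without KO replicate 3, 933 without WT replicate 1, 2100 without WT replicate 2 and 1288 without WT replicate 3), 5 to 17 of the other pathway genes beside 13 (19 without the filter on low counts), and 2 to 4 of the 10 genes beside 3 (4 without that filter). In limma it gave 482 to 3134 calls over all genes beside 2366 and 1 to 3 of the 10 genes beside 2. Without the filter on low TPM, limma called 1056 genes and 0 of the 10, of which 2 had an unadjusted p under 0.05. With library totals alone the median log2 fold change of all genes shifted from 0.03 to 0.15 and the share of calls that were higher in KO from 53.4% to 66.2%.

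The replicate numbers did not pair the libraries (correlations of same-numbered deviations 0.163, -0.122 and -0.050, and KO replicates 2 and 3 correlated best with another number). A replicate block gave 2520 calls in edgeR, 2373 of them shared, and 9 of the other pathway genes, and *Ltbp1* stood at 0.62 (adjusted p = 0.0618).

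Directions turned as follows. Without 1 library at a time, *Fstl3* ranged from -0.74 to 0.24 in edgeR (above 0 without KO replicate 2 and, at 0.06, without WT replicate 2) and from -0.44 to 0.53 in limma (above 0 for the same libraries). *Acvr2b* ranged from -1.02 to 0.11, above 0 without KO replicate 1, KO replicate 3 or WT replicate 1, and *Smad2* from -0.076 to 0.12, below 0 without KO replicate 2 or WT replicate 3. *Smad3* gave 0.054 with library totals and 0.20 with regional medians removed, and *Smad4* 0.040 with library totals. The causes were not tested. The window of *Acvr2a* held only 13 other genes, so no regional median was removed there. Counts per library were 8 to 30 for *Acvr2b* and 1 to 85 for *Mstn*, and both varied within a genotype.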

Other observations

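The libraries almost without *Mstn* (KO replicates 2 and 3 and WT replicate 2) were also the 3 lowest of the 6 for the muscle genes *Gm7325*, *Des*, *Ckm*, *Mylpf*, *Acta1* and *Tnnt3*, a comparison made after the values were seen. *Ckm*, the muscle creatine kinase gene, gave 574, 299.5 and 245 CPM in KO and 808, 357 and 827 CPM in WT in the order of replicates 1 to 3, so that the lowest WT library was nearer to KO replicate 2 than to the other WT libraries. These are 6 of the 12 myogenic markers. The other 6 had other lowest libraries: all 3 KO libraries for *Myf5* and *Myh3*, all 3 WT libraries for *Myod1* and *Cdh15*, KO replicates 2 and 3 with WT replicate 1 for *Tmem8c*, and KO replicate 3 with WT replicates 2 and 3 for *Myog*.

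KO replicate 2 was the lowest of the 3 KO libraries for 7 of the 10 genes (*Tgfb1*, *Tgfb3*, *Inhba*, *Fst*, *Fstl3*, *Ltbp1* and *Acvr2a*), KO replicate 3 for *Mstn* and *Acvr2b*, and KO replicate 1 for *Tgfb2*. No such order was tested.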
